A study of Mus musculus with 8 samples.

Results

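Newly formed oligodendrocytes of the mouse striatum are the 165 cells that the study's own annotation labels NFO, out of 14690 annotated striatal cells and 23687 annotated cells in the whole series. Adult mice that were wild type (WT) or heterozygous for Setd1a, a histone H3 lysine 4 methyltransferase (Setd1a+/-), were compared by droplet single-cell RNA sequencing of the prefrontal cortex (PFC) and striatum. Each tissue had 2 WT and 2 Setd1a+/- libraries, and each library pooled 2 male C57BL/6N mice, aged 8 to 10 weeks per the labels. The study's methods give an older age. Setd1a+/- mice carry a germline frameshift deletion made by CRISPR-Cas9 in the exon before the catalytic SET domain, and the WT mice were littermates. The labels name no treatment. The labels call the striatal tissue NAc, and the study describes it as dorsal and ventral striatum. Because each library is a pool, n counts libraries and not mice. The p-values rest on these pools alone, and the tests of genes take the spread between them in part from all genes together.

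Oligodendrocytes arise from progenitors that divide and carry the receptor Pdgfra. A progenitor that stops dividing passes through a premyelinating stage, in which it extends many processes and starts to express myelin genes, and it then either matures into a myelinating cell or dies. The premyelinating stage is short, so these cells are few in adult tissue and serve as a sign of ongoing oligodendrocyte formation. Enpp6 encodes a choline phosphodiesterase and Bmp4 a secreted bone morphogenetic protein, and both are used to mark this stage, as is the noncoding transcript 9630013A20Rik.

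Levels are given as unique molecular identifiers (UMIs) of a gene per 1000000 UMIs of the summed newly formed oligodendrocytes of a library (CPM). Values given as 4 in a row are always WT replicate 1, WT replicate 2, Setd1a+/- replicate 1 and Setd1a+/- replicate 2. The cells numbered 58, 32, 53 and 22, and their summed UMIs 175971, 94496, 183044 and 43581. Setd1a+/- replicate 2 is thus the shallowest library, and there 3 UMIs equal 68.8 CPM, against 16.4 to 31.7 CPM in the other libraries. Median UMIs per cell were 2775, 2572, 3211 and 1828, above those of progenitors (1351 to 1729) in every library and above those of mature oligodendrocytes (2035 to 2124) in every library except Setd1a+/- replicate 2. Barcodes found in more than 1 striatal library numbered 91, of which 3 belonged to newly formed oligodendrocytes. The study's methods name no doublet removal and none was made here.

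The promoter windows of the marker genes and of Fyn, the leading gene that followed 9630013A20Rik and Bmp4 in rank, are shown because these genes were high together at this stage. They run from 250 bases before to 50 bases after the gene start, from RefSeq on GRCm38.p6, 5′ to 3′ on the gene's strand. Capitals mark ACAATG or ACAAAG on either strand, the core that SOX proteins such as Sox10 can bind. The windows are chr14:84476375-84476674 on the minus strand for 9630013A20Rik, chr14:46390620-46390919 on the minus strand for Bmp4, chr8:46986637-46986936 on the plus strand for Enpp6 and chr10:39369549-39369848 on the plus strand for Fyn.
9630013A20Rik: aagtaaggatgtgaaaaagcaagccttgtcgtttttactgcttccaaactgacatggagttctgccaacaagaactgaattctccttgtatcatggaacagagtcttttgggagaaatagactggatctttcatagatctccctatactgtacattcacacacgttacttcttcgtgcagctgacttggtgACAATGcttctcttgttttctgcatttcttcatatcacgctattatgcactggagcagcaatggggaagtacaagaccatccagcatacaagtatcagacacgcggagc
Bmp4: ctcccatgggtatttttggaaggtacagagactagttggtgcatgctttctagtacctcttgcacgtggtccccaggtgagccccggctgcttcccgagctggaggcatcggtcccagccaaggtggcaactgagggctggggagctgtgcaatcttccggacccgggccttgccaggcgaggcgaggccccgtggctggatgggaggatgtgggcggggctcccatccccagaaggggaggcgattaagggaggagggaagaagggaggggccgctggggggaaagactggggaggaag
Enpp6: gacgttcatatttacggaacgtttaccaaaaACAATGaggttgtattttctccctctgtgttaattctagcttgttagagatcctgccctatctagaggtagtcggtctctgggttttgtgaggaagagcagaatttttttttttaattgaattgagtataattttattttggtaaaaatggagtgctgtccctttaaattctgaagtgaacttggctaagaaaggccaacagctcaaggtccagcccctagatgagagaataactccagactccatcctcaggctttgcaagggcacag
Fyn: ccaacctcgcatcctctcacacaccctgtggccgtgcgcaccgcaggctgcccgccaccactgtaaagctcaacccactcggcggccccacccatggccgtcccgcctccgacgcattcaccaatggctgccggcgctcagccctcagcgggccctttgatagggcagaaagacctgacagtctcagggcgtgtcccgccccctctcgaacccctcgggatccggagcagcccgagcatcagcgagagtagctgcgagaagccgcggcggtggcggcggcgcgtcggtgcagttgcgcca
The windows of 9630013A20Rik and Enpp6 each held 1 such core, starting 59 and 219 bases before the gene start, and those of Bmp4 and Fyn held 0. Among the 25 leading genes described next, 23 had a window, and 8 of those (34.8%) held the core, against 28.8% of 27025 windows of all genes. For comparison, 9 of 17 windows of mature oligodendrocyte genes (52.9%) and 2 of 11 of progenitor genes (18.2%) held it. The TCF/LEF motif ATCAAAG was in 1 of 23 leading windows (4.35%), that of Fyn, and in 3.72% of all windows. A match is a string of letters and no evidence of binding.

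The 3 markers set these cells apart from every other annotated striatal type. 9630013A20Rik, which lies at chr14:84458639-84476424 (GRCm38) and is annotated as an antisense transcript that cannot be told from a gene on the other strand if counting ignored strand, stood at 1267, 868, 1726 and 1698 CPM. The next highest type, mature oligodendrocytes, averaged 13.7 CPM. The ratio to the next type, here and for other genes taken after adding 1 CPM to both means, was 94.3. Bmp4 (chr14:46383520-46390669) stood at 796, 614, 787 and 597 CPM, against 20.9 CPM in endothelial cells. Enpp6 (chr8:46986887-47096762) stood at 926, 593, 1546 and 757 CPM, and mature oligodendrocytes averaged 238 CPM, a ratio of 4.01 that leaves it outside the 25 leading genes named further on. No library of newly formed oligodendrocytes overlapped a library of any other type for these 3 genes. All 3 markers had a UMI in 83 of 165 cells, 45 cells had 2, 30 cells had 1 and 7 cells had 0. With every cell thinned to 1000 UMIs, 9630013A20Rik was seen in 55.8% of newly formed oligodendrocytes, 0.139% of progenitors, 0.341% of mature oligodendrocytes and 0.0512% of D1 medium spiny neurons, which should lack it. Unthinned, the shares were 73.3%, 0.139%, 0.597% and 0.128%. No cell of these types had fewer than 1000 UMIs, so none was left out.

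Several markers of the stages on either side were low or absent. The annotation was itself made from expression, so this is no independent check of the label. Pdgfra, the receptor that defines progenitors, had 1 UMI among the 165 cells (5.68, 0, 0 and 0 CPM) and averaged 799 CPM in progenitors. Mal, a proteolipid of compact myelin, stood at 62.5, 52.9, 27.3 and 138 CPM, against 3008 CPM in mature oligodendrocytes. Klk6 and Hapln2, both of late oligodendrocytes, had 0 UMIs in all 4 libraries. Not all listed genes were so low. Vcan, of the progenitor list, averaged 297 CPM, against 459 CPM in progenitors. Of the 15 progenitor genes, 1 was highest in newly formed oligodendrocytes, and of the 20 mature genes 0. Across 6765 genes, mean log2 levels of newly formed oligodendrocytes correlated most with those of progenitors (Pearson r = 0.859 across genes) and next with those of mature oligodendrocytes (0.815), and no other type passed 0.688. These points share libraries and depth, and genes are not independent replicates.

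Of 3160 genes that averaged 50 CPM or more in newly formed oligodendrocytes, 718 were highest there among the 10 striatal types. For 130 this was by more than 2-fold and for 36 by more than 4-fold over the next type. The cut was made on these same cells and so favours genes that are high in them. These are descriptions without a test, because the annotation was itself made from expression. For 160 genes every newly formed library lay above every library of every other type. The 25 genes with the largest ratio to the next type, an order that the added 1 CPM affects for low genes, are called leading genes here, and all 25 were also highest in newly formed oligodendrocytes among the types of the PFC. The last of them, Ssh3, had a ratio of 5.17 and the next gene, Chn2, one of 5.03.

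**Figure D1:**
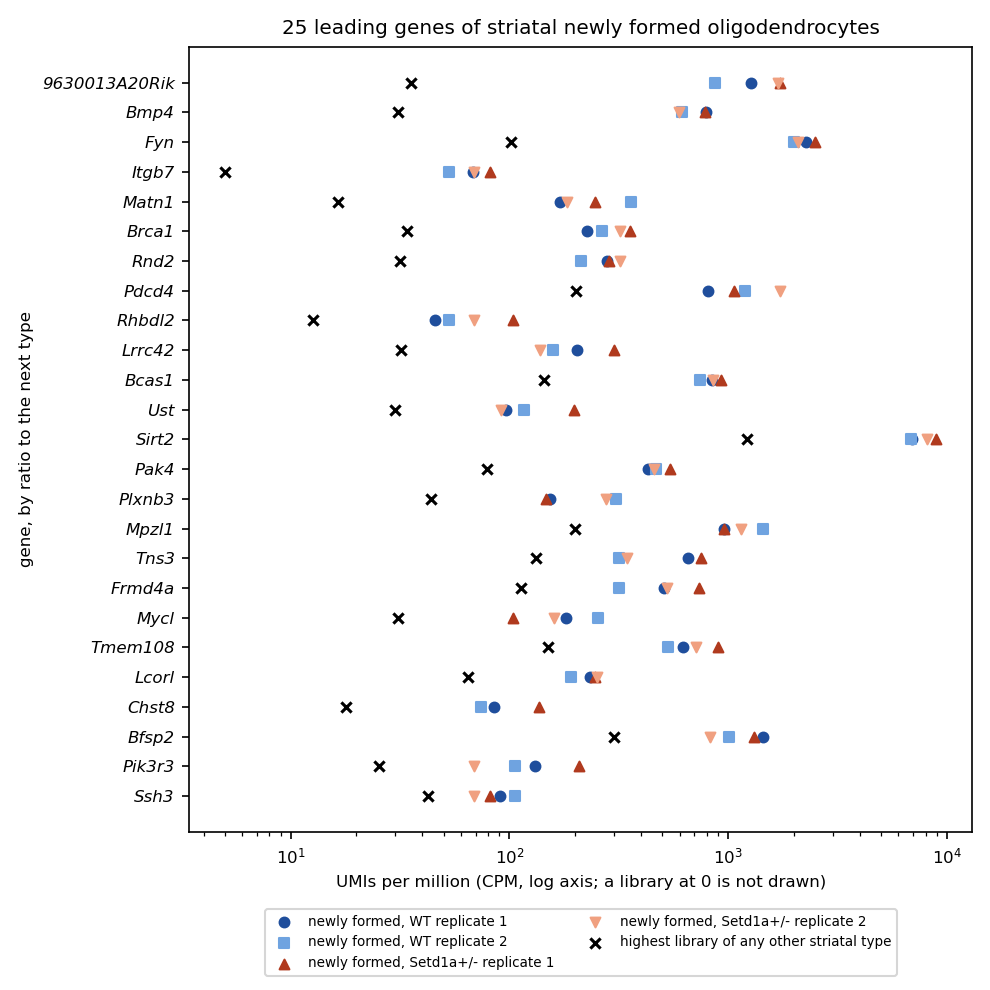
CPM on a log axis for the 25 leading genes, with 1 point per striatal library of newly formed oligodendrocytes and a cross for the highest single library of any other striatal type. For 24 of the 25 genes all 4 points lie to the right of the cross, and the exception is Chst8, which had 0 UMIs in Setd1a+/- replicate 2.

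Of the 25 leading genes, 4 were on the list for process outgrowth, cytoskeleton and adhesion: Fyn, Tns3, Plxnb3 and Sirt2. Fyn, a Src family kinase that drives oligodendrocyte process growth, stood at 2267, 1990, 2491 and 2088 CPM, and its next type, progenitors, averaged 93.7 CPM. Sirt2, a deacetylase of tubulin that is also a myelin component, reached 6927, 6836, 8954 and 8146 CPM, against 1146 CPM in mature oligodendrocytes, and had a UMI in every one of the 165 cells. Rnd2, a small GTPase, stood at 279, 212, 284 and 321 CPM (OPC, the study's name for progenitors, 25.7 CPM). Both libraries of each genotype were high for these 3 genes, and the spread within a genotype was small beside the distance to other types.

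Pak4, a kinase acting on actin, stood at 432, 466, 541 and 459 CPM, with progenitors at 70.5 CPM. Plxnb3, a semaphorin receptor, stood at 153, 307, 148 and 275 CPM, and replicate 2 was the higher value in both genotypes. Tns3, a focal adhesion adaptor, stood at 654, 318, 749 and 344 CPM, and here replicate 1 was the higher value in both genotypes. Of the 28 genes listed for process outgrowth, cytoskeleton and adhesion, 14 were highest in newly formed oligodendrocytes and 7 had no overlapping library of another type. Among the 3160 genes at 50 CPM or more in newly formed oligodendrocytes, these counts were 718 and 160. The list had no such cut and was chosen with earlier results of these data known, so an excess in it is no test. The summed level of that list was 25745 CPM, against 14585 CPM in mature oligodendrocytes and 6817 CPM in progenitors.

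Other leading genes had other roles. Bcas1, which marks cells that are forming myelin, stood at 847, 741, 929 and 849 CPM, and both neighbouring stages were low (118 CPM in progenitors and 112 CPM in mature cells). Brca1, a DNA repair gene, stood at 227, 265, 355 and 321 CPM, against 24.7 CPM in neural stem cells and neuroblasts (NB), the next type. Pdcd4, an inhibitor of translation, stood at 813, 1196, 1065 and 1721 CPM. Brca1 thus ran above the dividing NB cells although genes of the cell cycle were nearly silent in newly formed oligodendrocytes: the 20 cell cycle genes summed to 141 CPM, against 960 CPM in progenitors and 14136 CPM in NB, and Mki67, Top2a, Cdk1 and Ccna2 had 0 UMIs in all 4 libraries.

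Bfsp2, a filament protein best known from the lens, stood at 1438, 1005, 1311 and 826 CPM, and mature oligodendrocytes followed at 215 CPM. Itgb7, an integrin chain, was a leading gene at a low level (68.2, 52.9, 82.0 and 68.8 CPM) and was seen in 15.2% of the cells. Rhbdl2, a rhomboid protease, was seen in 16.4%. Single-cell counts of such genes are near 1 UMI, so their ratios rest on few molecules.

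The summed progenitor, mature and myelin lists of newly formed oligodendrocytes lay between those of the other stages, and the newly formed list was highest in them. The 15 genes of a wider newly formed list summed to 10166, 9916, 10724 and 9064 CPM, against means of 2215 CPM in progenitors and 362 CPM in mature oligodendrocytes, and 13 of them were highest at this stage. Gpr17, an orphan receptor that restrains maturation, stood at 1290, 1238, 1278 and 1101 CPM, against 276 CPM in progenitors and 6.70 CPM in mature cells. Cd9, a tetraspanin, stood at 7234, 8148, 7545 and 6930 CPM. The libraries of both genotypes overlapped for both genes.

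**Figure D2:**
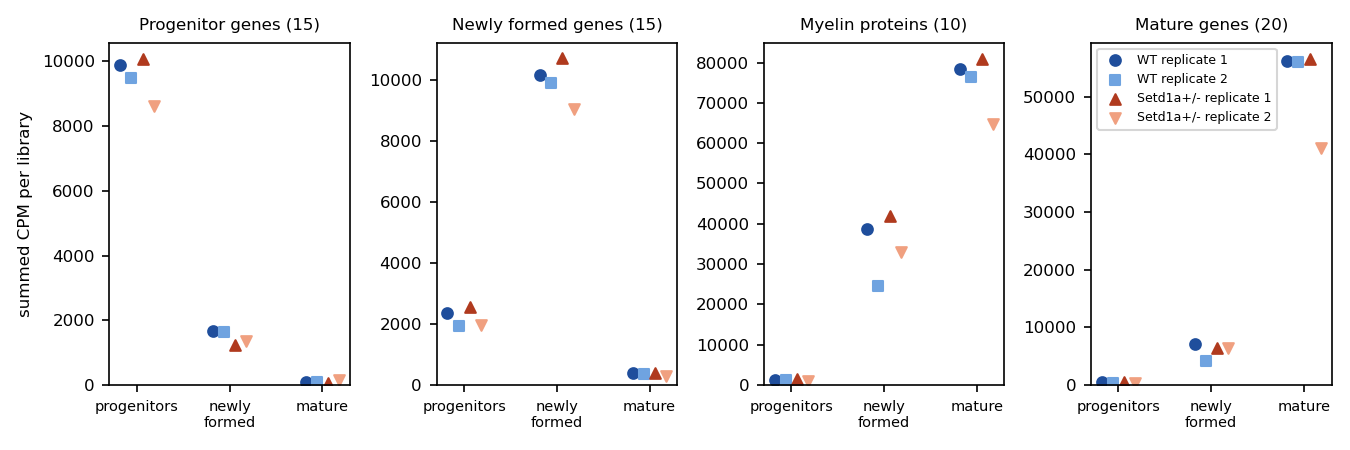
Summed CPM of 4 gene lists in progenitors, newly formed and mature oligodendrocytes of the striatum, 1 point per library, on linear axes that start at 0. Progenitor genes at the newly formed stage sum to 1251 to 1671 CPM, against a mean of 9514 CPM in progenitors, mature genes are far under their mature level, myelin proteins lie between, and the newly formed list peaks in the middle in every library.

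Myelin genes were already strong. The 10 genes of myelin structural proteins summed to 38762, 24615, 42050 and 32927 CPM, against 1269 CPM in progenitors, 75112 CPM in mature oligodendrocytes and 676 CPM in D1 medium spiny neurons, which make no myelin. Mbp, the basic protein that compacts the sheath, stood at 12127, 5175, 12893 and 10142 CPM, and mature cells averaged 15373 CPM. Mog, which comes late on the outer sheath, stood at 119, 106, 229 and 229 CPM, against 2130 CPM in mature cells. None of the 10 genes was highest at the newly formed stage.

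Summed over their lists, genes of the stages on either side were low. The 15 progenitor genes summed to 1671, 1640, 1251 and 1354 CPM, against 9514 CPM in progenitors. The 20 mature genes summed to 7189, 4106, 6403 and 6402 CPM, against 52485 CPM in mature cells. Some mature genes came from few cells: Car2, carbonic anhydrase 2, had 29 UMIs in Setd1a+/- replicate 2 and 23 of them were in 1 cell. Trf, transferrin, likewise stood highest there (227, 201, 164 and 872 CPM).

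Among 26 lineage transcription factors, 7 were highest in newly formed oligodendrocytes, beside 718 of the 3160 genes at 50 CPM or more in these cells. This list had no such cut, so the counts are a description and no test. Its summed level was highest in NB, at 4013 CPM, against 2733 CPM in newly formed oligodendrocytes and 2412 CPM in progenitors. Tcf7l2, an effector of Wnt signaling needed for maturation, stood at 381, 392, 656 and 482 CPM, and astrocytes followed at 132 CPM. Nkx2-2, a homeodomain factor of the lineage, stood at 171, 296, 219 and 115 CPM, against 90.7 CPM in progenitors. Myrf, which switches on myelin genes, averaged 123 CPM, against 126 CPM in mature cells and 8.62 CPM in progenitors.

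Of the 23 genes listed for BMP, Wnt and Notch signaling, Bmp4 and Tcf7l2 were the 2 highest at this stage. Lists of 19 genes of cholesterol synthesis and 25 receptor and channel genes had 7 and 3 members highest here. Of the 18 genes of H3K4 methylation, the machinery to which Setd1a belongs, 1 was highest at this stage and the list summed to 526 CPM, against 639 CPM in progenitors and 440 CPM in mature cells. The 15 acute response genes that tissue dissociation can raise summed to 2392, 1280, 3267 and 1193 CPM, and replicate 1 was the higher value in both genotypes.

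Taking the lineage in order, 3899 genes kept for this count reached 50 CPM in at least 1 of the 3 stages. Genes with only a few UMIs in newly formed oligodendrocytes were left out unless they were on a list. Counts of genes lower or higher at each step, or lowest in the middle, are therefore lower limits. From progenitor to newly formed to mature, mean levels of 1449 genes were lower at each step, those of 444 were higher at each step, 1442 were highest in the middle and 564 were lowest in the middle. By more than 2-fold over both neighbours, after adding 1 CPM, 227 were highest and 55 were lowest. Ptn, a secreted growth factor, was among the lowest at 491 CPM, against 4650 CPM in progenitors and 1729 CPM in mature cells. Gng11, a G protein subunit, stood at 52.1 CPM, against 230 and 1237 CPM.

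The 165 cells differed widely among themselves in how far myelin expression had gone. The 10 myelin genes took a median of 2.61% of a cell's UMIs, with a range from 0.223% to 13.5%, against medians of 0.110% in progenitors and 7.54% in mature oligodendrocytes. Across the 165 cells, the share of the 3 markers was higher in cells with a higher myelin share (Spearman correlation 0.77 over all cells and 0.64 to 0.77 within a library), and the share of progenitor genes was lower (-0.71 over all cells and -0.75 to -0.54 within a library). Of the 3 markers, 9630013A20Rik and Enpp6 followed this pattern in every library and Bmp4 did not, with values from -0.11 to 0.05. The cells of 1 library share an animal pool and their shares are parts of 1 total, so these values are a description.

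**Figure D3:**
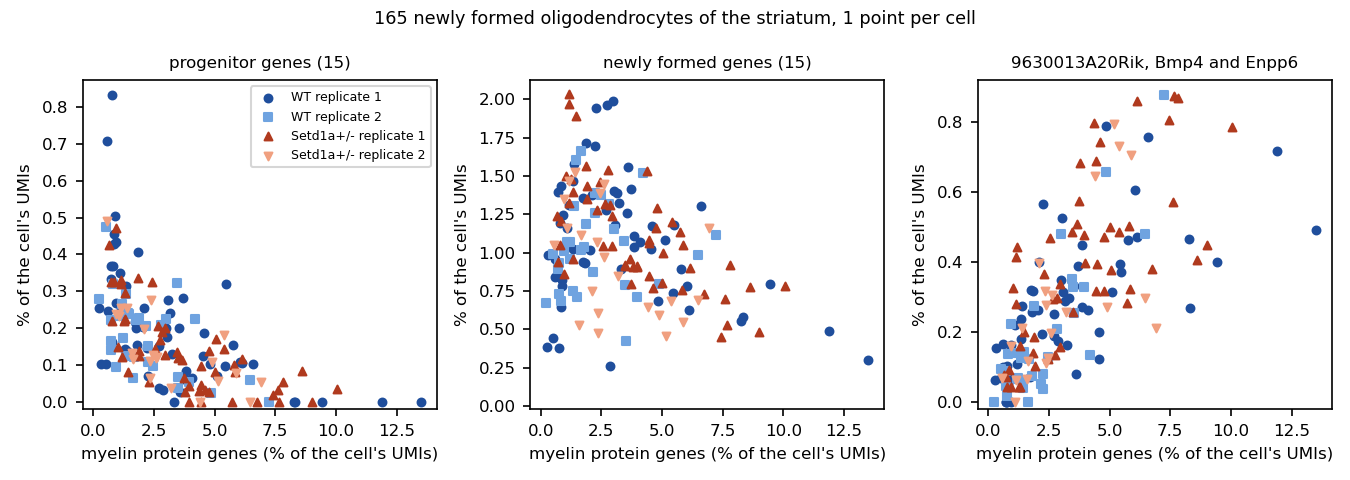
Each point is 1 of the 165 cells, with the share of its UMIs from myelin protein genes on the x axis and the share from another list on the y axis, marked by library. Cells with more myelin RNA have a lower share of progenitor UMIs and a higher summed share of 9630013A20Rik, Bmp4 and Enpp6, to which Bmp4 alone adds no trend (-0.11 to 0.05 within a library), the middle panel of 15 newly formed genes shows a weaker trend (Spearman correlation -0.25 over all cells), and the 4 libraries overlap throughout.

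Single genes could be ordered the same way. Of 60 list or leading genes with a UMI in at least 30% of the cells, 33 correlated positively with the myelin share in all 4 libraries and 10 negatively. A myelin gene was left out of the share it was compared with. The genes named here are from outside the myelin list. Nfasc, an adhesion molecule of the node region, ranged from 0.73 to 0.89 over the 4 libraries. Enpp6 ranged from 0.58 to 0.74 and 9630013A20Rik from 0.56 to 0.73. Frmd4a, a scaffold of cell polarity, ranged from 0.52 to 0.75 and Tcf7l2 from 0.53 to 0.67.

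On the negative side, Lims2, a focal adhesion adaptor, ranged from -0.73 to -0.37. Gpr17 ranged from -0.51 to -0.15, and Nkx2-2 from -0.37 to -0.25. Cd9, Neu4, Ptprz1, Sox6, Sox8, Matn4 and Olig1 were also negative in all 4 libraries. The newly formed oligodendrocytes with little myelin RNA therefore carried more Gpr17, and those with much carried more Enpp6. The wider list had no single order, and its Spearman correlation with the myelin share was -0.64, -0.42 and -0.10 in 3 libraries and 0.23 in WT replicate 2.

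The share of newly formed oligodendrocytes among annotated striatal cells was 1.33% (95% Wilson interval 1.03 to 1.72) in WT replicate 1, 0.792% (0.562 to 1.12) in WT replicate 2, 1.40% (1.07 to 1.82) in Setd1a+/- replicate 1 and 0.882% (0.583 to 1.33) in Setd1a+/- replicate 2. Means were 1.06% ± 0.380 in WT and 1.14% ± 0.364 in Setd1a+/- (SD, n = 2 libraries), and the genotypes overlapped (2-sided exact permutation test, p = 0.667, where the smallest p possible is 0.333). Replicate 1 was the higher share in both genotypes, and within each replicate pair the Setd1a+/- share was the higher, with overlapping intervals. The permutation test does not use the pairing. These intervals cover counting error only.

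**Figure D4:**
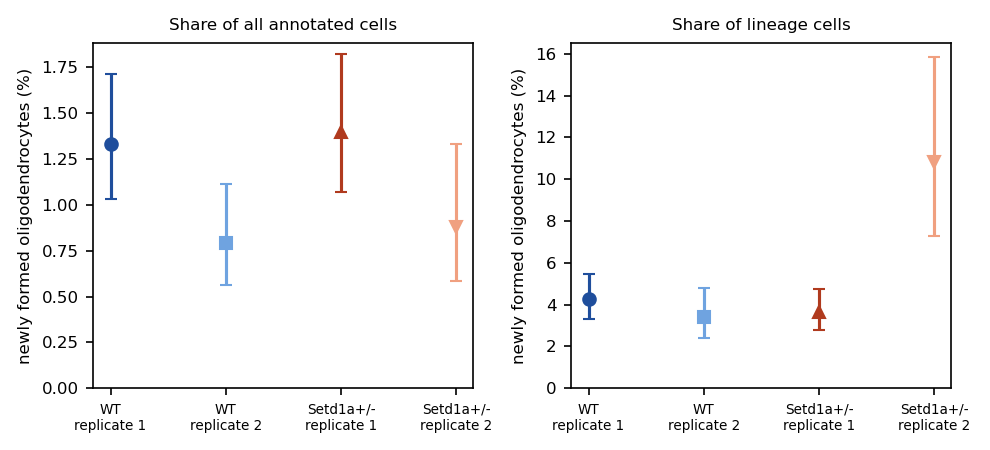
Newly formed oligodendrocytes as a share of all annotated striatal cells (left) and of progenitors, newly formed and mature oligodendrocytes together (right), 1 point per library with its 95% Wilson interval. On the right, Setd1a+/- replicate 2 stands at 10.8% while the other libraries lie between 3.42% and 4.26%.

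Among lineage cells the share was 4.26%, 3.42%, 3.65% and 10.8%. The last library held 67 mature oligodendrocytes and 114 progenitors, whereas the others held 514 to 947 and 391 to 485, and this moved its lineage share. Means were 3.84% in WT and 7.25% in Setd1a+/- (exact permutation p = 0.667). In the PFC the share among annotated cells ranged from 2.32% to 4.67%.

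Setd1a itself could not be assessed in these cells. It had 1, 1, 0 and 1 UMIs, in 3 of the 165 cells, which is under the floor of 3 UMIs in every library, so no fold is given. In progenitors it stood at 13.9, 11.7 and 7.71 CPM and in mature oligodendrocytes at 5.31, 15.2 and 5.14 CPM in the first 3 libraries, and each of these stages had 1 UMI in Setd1a+/- replicate 2. The protocol reads a tag of each transcript and so does not check the exon that carries the deletion.

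No gene passed the test between genotypes without the replicate pairing, and 4 genes (0.163% of 2453) passed with it: Meg3, Apoe, Arpp21 and Fxyd6, all lower in Setd1a+/-. Without the pairing, in edgeR's quasi-likelihood test, 0 of 2453 genes (0%) passed a false discovery rate (FDR, Benjamini-Hochberg) of 0.05 with a fold above 2, the smallest adjusted p was 0.236, and 101 genes had an unadjusted p under 0.05, 42 higher and 59 lower in Setd1a+/-. DESeq2 also gave 0, with 18 genes at an unadjusted p under 0.05. For 753 genes (30.7%) the libraries of the genotypes did not overlap. A count of 0 from 2 libraries a group does not show that the genotypes express these genes alike.

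None of the lists had a called member, with the pairing or without it. The 23 leading genes tested had a median log2 difference of 0.27 (Setd1a+/- minus WT), 17 higher and 6 lower, against a median of 0.00 over all genes tested. The myelin list had a median of 0.13 over 9 genes, the mature list 0.09 over 10 and the progenitor list -0.31 over 7. The 3 H3K4 genes tested had a median of -0.49, and of the medium spiny neuron list 2 genes were tested, with a median of -1.85. 9630013A20Rik was higher in both Setd1a+/- libraries than in both WT libraries, with a log2 difference of 0.70 ± 0.27 (SE; edgeR unadjusted p = 0.0239, adjusted p = 0.999). Enpp6 and Bmp4 overlapped between genotypes.

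List members with the smallest p were likewise uncalled. Zfp365 stood at 108, 74.1, 202 and 229 CPM, a log2 difference of 1.17 ± 0.37 (edgeR adjusted p = 0.958). Sox10, the factor that directs the lineage, stood at 261, 212, 371 and 665 CPM (1.00 ± 0.34, edgeR adjusted p = 0.987). Mog, with the values given above, differed by 1.03 ± 0.34, and Tcf7l2 by 0.65 ± 0.27. Vcan, a proteoglycan of progenitors, stood at 352, 370, 191 and 275 CPM (-0.71 ± 0.31). Cadm2 of the adhesion list differed by 0.90 ± 0.32. Snap25 and Tac1, both listed as genes of neurons, differed by -1.56 ± 0.52 and -2.24 ± 0.90. In all of these except Tac1 the 2 Setd1a+/- libraries lay on 1 side of the 2 WT libraries, as they did for 30.7% of all genes tested.

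Among the 10 genes with the smallest p, the first described here were highest in neurons. Arpp21, a phosphoprotein of medium spiny neurons, stood at 381, 349, 104 and 68.8 CPM, a log2 difference of -1.91 ± 0.34 (edgeR adjusted p = 0.236, and 0.0264 with the replicate block), and D2 medium spiny neurons averaged 3659 CPM. Meg3, a long noncoding RNA, stood at 1364, 1630, 115 and 574 CPM (-2.50 ± 0.52, edgeR adjusted p = 0.245, and 0.00208 with the replicate block), and D1 medium spiny neurons averaged 11692 CPM. Snhg11 and Stmn3 differed by -1.83 and -2.01 on the log2 scale and, with Pcp4 (335, 519, 104 and 252 CPM), were also highest in neurons. Near-empty droplets, those with 10 to 100 UMIs, held more of each of these 5 genes than newly formed oligodendrocytes did.

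Another 4 genes were not highest in neurons. Fxyd6, a regulator of the sodium pump, stood at 443, 603, 164 and 138 CPM (-1.68 ± 0.32, edgeR adjusted p = 0.236, and 0.0383 with the replicate block), and progenitors averaged 886 CPM. Ramp1, a receptor accessory protein, stood at 341, 455, 87.4 and 252 CPM. Near-empty droplets averaged 376 CPM for Ramp1, above its mean of 284 CPM, and lay below the means of Fxyd6, 4430402I18Rik and Fkbp15. 4430402I18Rik stood at 398, 392, 721 and 826 CPM (0.98 ± 0.26), and Fkbp15 at 85.2, 106, 229 and 229 CPM (1.32 ± 0.36). In newly formed oligodendrocytes of the PFC, the log2 difference of Fxyd6 was 0.18 and that of Arpp21 -0.81, neither of them called.

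**Figure D5:**
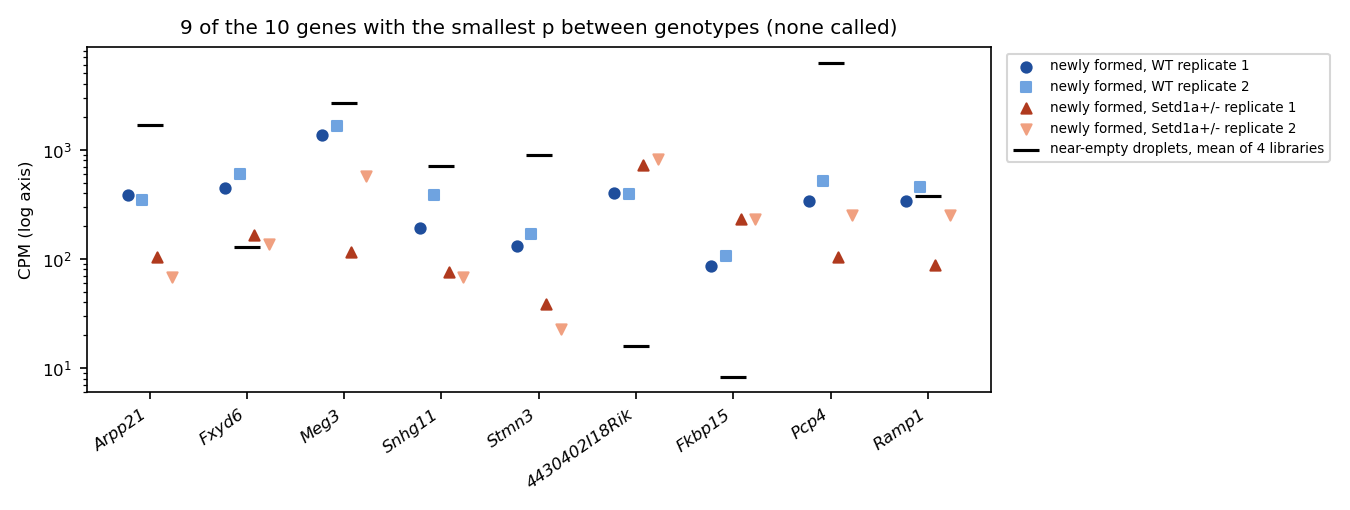
CPM on a log axis of 9 of the 10 genes with the smallest p between genotypes, 1 point per striatal library of newly formed oligodendrocytes, with a bar for the mean of near-empty droplets. The 2 WT libraries lie on 1 side of the 2 Setd1a+/- libraries for all 9 genes. For Arpp21, Meg3, Snhg11, Stmn3 and Pcp4 the bar lies above every point, and for Ramp1 above every point but that of WT replicate 2.

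RNA of medium spiny neurons stood higher in both WT libraries, most of it in few cells, and the sums were not tested. The 10 genes of the medium spiny neuron list summed to 756, 1079, 109 and 459 CPM, so both WT libraries were higher, and all 10 had a UMI. In WT replicate 1, 109 of 133 such UMIs were in 3 cells, and in WT replicate 2, 83 of 102. The 4 hemoglobin genes summed to 6228, 84.7, 43.7 and 68.8 CPM, and 1089 of the 1096 UMIs in WT replicate 1 were in 1 cell. Meg3 had 138 of 240 UMIs in 1 cell of WT replicate 1. The defining receptors Drd1 and Drd2 stood at 0 to 17.0 and 0 to 10.6 CPM. The microglia list summed to 56.8, 63.5, 410 and 45.9 CPM, and the genotypes overlapped. In Setd1a+/- replicate 1, 64 of its 75 UMIs were in 1 cell.

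In all, 5 WT cells, 3 in replicate 1 and 2 in replicate 2, had over 0.2% of their UMIs on the medium spiny neuron list or over 1% on hemoglobin genes, and no Setd1a+/- cell did. Without them, chosen after seeing the data, the medium spiny neuron list summed to 174, 297, 109 and 459 CPM, a list on which the cells were chosen, and 0 of 2208 genes passed in edgeR and 78 had an unadjusted p under 0.05. The log2 difference of Meg3 then was -0.63 and that of Arpp21 -1.06, while that of Fxyd6 was -1.80 and that of Ramp1 -1.45. The part of neuronal RNA in the values of the other genes was not tested. Cells were screened on these 2 lists only, both of them higher in the WT libraries. Cells rich in RNA of other types, such as the Setd1a+/- cell rich in microglia RNA, stayed in.

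Each biological replicate held 1 WT and 1 mutant sample per the study's methods, so the number pairs the libraries. Blocked on this pairing, the edgeR test called 4 genes (0.163% of 2453), all lower in Setd1a+/-: Meg3 (adjusted p = 0.00208), Apoe (0.0248), Arpp21 (0.0264) and Fxyd6 (0.0383). Apoe, a lipid carrier made by astrocytes and microglia, stood at 875, 2138, 410 and 711 CPM and differed by -1.27 with the block and by -1.47 without it. With 1 library left out, and no block, the calls numbered 16 without WT replicate 1 (3 higher and 13 lower in Setd1a+/-), 8 without WT replicate 2 (all lower), 7 without Setd1a+/- replicate 1 (5 higher and 2 lower) and 1 without Setd1a+/- replicate 2 (Meg3, lower). The direction of most calls thus turned without Setd1a+/- replicate 1.

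Whether the genotype effect in newly formed oligodendrocytes differed from that in the neighbouring stages was tested within the same libraries. Against progenitors, 17 of 3908 genes (0.435%) passed an FDR of 0.05 in edgeR's quasi-likelihood test, 1 higher (0.0256%) and 16 lower (0.409%). Of these, 4 were hemoglobin genes, among which Hba-a1 and Hba-a2 are near-identical copies that share reads. Meg3, Pcp4, Tac1, Arpp21 and Snhg11, also called, were highest in neurons. Tubb2b, a tubulin, was the gene with the higher effect (0.91 ± 0.24, edgeR adjusted p = 0.0363). In this edgeR test the p-values rested on a spread taken mostly from all genes, so a gene's own spread between pools weighed little. Hbb-bs had an edgeR adjusted p of 3.86e-69 although 716 of its 720 UMIs in WT replicate 1 were in 1 cell. DESeq2 called 0, with 33 genes at an unadjusted p under 0.05. Against mature oligodendrocytes 8 of 3633 genes (0.22%) passed, all lower, of which 7 were also among the 17. With the replicate pairing entered within each stage, 11 genes passed against progenitors (0.281%), all lower and all among the 17, and 10 against mature oligodendrocytes (0.275%), all lower and holding the 8. Tubb2b then had an edgeR adjusted p of 0.145 and Fxyd6 one of 0.0115.

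Without the 5 WT cells, 1 gene passed against progenitors, Fxyd6 (-1.58, edgeR adjusted p = 0.00434), and 0 against mature oligodendrocytes, with 177 genes at an unadjusted p under 0.05. Fxyd6 UMIs were spread over cells: 78 in 30 of 58 cells, 57 in 21 of 32, 30 in 22 of 53 and 6 in 4 of 22. In progenitors alone, Fxyd6 differed between genotypes by -0.28 on the log2 scale (edgeR adjusted p = 0.999). Without Setd1a+/- replicate 1 the call against progenitors was Fth1, with a higher effect (1.45 on the log2 scale). Without WT replicate 1 or WT replicate 2 the calls were all lower. Fxyd6 was not called against progenitors in any of these 3 cases and was called without Setd1a+/- replicate 2. Against mature oligodendrocytes the count was 3 without WT replicate 1 (Penk, Ppp1r1b and Meg3). Without Setd1a+/- replicate 1, Ermn, Car2, Trf and Fth1 had higher effects and Arpp21 and Meg3 lower ones. Without Setd1a+/- replicate 2 most calls stayed lower, though not all. The direction of most calls thus turned only without Setd1a+/- replicate 1.

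In the genotype fits of progenitors and of mature oligodendrocytes, 0 of 8003 and 0 of 8014 genes passed in edgeR, with 186 and 167 at an unadjusted p under 0.05. In newly formed oligodendrocytes of the PFC, 0 of 3889 passed and 81 had an unadjusted p under 0.05. In the test of whether the genotype effect differed by tissue, 0 of 3763 genes (0%) passed in edgeR, with 125 at an unadjusted p under 0.05, and DESeq2 also gave 0. With the replicate block 1 gene differed, Meg3 (-2.69, edgeR adjusted p = 0.00437).

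Newly formed oligodendrocytes of the striatum and PFC were compared over all 8 libraries with genotype in the model. The tissue of the striatum was digested for longer than that of the PFC, so tissue and digestion cannot be told apart. Of 3312 genes, 2 passed (0.0604%; edgeR, FDR 0.05 and a fold above 2), and 317 had an unadjusted p under 0.05, 186 higher and 131 lower in the striatum. Rbm3, a cold-inducible RNA-binding protein (chrX:8138975-8145880), stood at 85.2, 159, 115 and 138 CPM in the striatum and at 396, 245, 686 and 368 CPM in the PFC. Its log2 difference was -1.76 ± 0.28 (edgeR adjusted p = 0.0214). Pfn1, profilin 1, which feeds actin growth (chr11:70651850-70654644), stood at 227, 519, 240 and 298 CPM in the striatum and at 20.8, 112, 35.1 and 98.6 CPM in the PFC (2.43 ± 0.42, edgeR adjusted p = 0.0302). The tissues did not overlap for either gene, as for 155 genes (4.68%) in all.

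The 25 leading genes had a median log2 difference of -0.16 (striatum minus PFC) and none was called, against a median of -0.01 over all genes tested. Mature genes had a median of 0.60 over 11 genes, 4 of them with an unadjusted p under 0.05 and higher in the striatum, and progenitor genes one of -0.61 over 7 genes, 3 of them under 0.05 and lower. Trf stood at 227, 201, 164 and 872 CPM in the striatum and at 59.5, 112, 74.1 and 134 CPM in the PFC (1.78 ± 0.43, edgeR adjusted p = 0.138). In the striatum, the 3 cells with the most Trf held 27 of 40, 17 of 19, 14 of 30 and 34 of 38 of its UMIs. The part of such cells in the list difference was not tested. Sox6, a factor of progenitors, stood at 227, 138, 224 and 138 CPM in the striatum and at 348, 301, 320 and 305 CPM in the PFC (-0.68 ± 0.23, edgeR adjusted p = 0.349). The acute response list summed to 2392, 1280, 3267 and 1193 CPM in the striatum (mean 2033) and to 1158 to 1736 CPM in the PFC (mean 1446), and the tissues overlapped.

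Blocked on the replicate pairing within each tissue, with a filter that kept 3763 instead of 3312 genes, 58 passed (1.54%), 49 higher and 9 lower in the striatum, both genes named above among them. For 23 of the 58 the tissues did not overlap, 14 of them higher and 9 lower in the striatum. Many of the others were low in the replicate 1 libraries of the PFC alone. Some of the 23 were also lowest there, such as Pfn1, at 20.8 and 35.1 CPM against 112 and 98.6 CPM in the replicate 2 libraries of the PFC. Ap2a1, an adaptor of endocytosis, stood at 932, 783, 710 and 551 CPM in the striatum and at 17.9, 903, 3.90 and 663 CPM in the PFC. Gapdh, a glycolytic enzyme, stood at 483, 476, 350 and 275 CPM in the striatum and at 44.6, 286, 15.6 and 188 CPM in the PFC. The 49 higher in the striatum held Meg3 and 3 of the medium spiny neuron list (Penk, Ppp1r1b and Tac1), which were highest in striatal neurons. That list summed to 756, 1079, 109 and 459 CPM in the striatum (mean 601) and to 8.93 to 53.8 CPM in the PFC, and its part in the count was not tested. Penk, the enkephalin precursor of D2 neurons, stood at 51.1, 455, 43.7 and 184 CPM in the striatum and had 0 UMIs in the PFC.

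The tissue count rested on single libraries. It was 0 without Setd1a+/- replicate 2 of the striatum, 0 without WT replicate 1 of the PFC and 0 without Setd1a+/- replicate 1 of the PFC. It was 43 without WT replicate 2 of the PFC, 23 without Setd1a+/- replicate 2 of the PFC and 6 without Setd1a+/- replicate 1 of the striatum. Within replicate 1 libraries it was 161 and within replicate 2 libraries 16. Where calls remained, Rbm3 lost its own without WT replicate 1 of the striatum, Pfn1 without WT replicate 2 of the striatum, and both without Setd1a+/- replicate 1 of the striatum, where all 6 calls were higher in the striatum. The log2 difference of Rbm3 was -1.48 in WT and -2.08 in Setd1a+/- libraries, and that of Pfn1 2.58 and 2.18.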

How the data were processed

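Cells were profiled on the 10x Chromium platform. Per the labels and methods, the authors used Cell Ranger 3.0.2 with mm10 to make the deposited counts, which are raw UMIs per gene and barcode, and Seurat 3.2.0 to annotate cells that passed their filters on genes and mitochondrial reads. Whether counting used strand is not given in the sources used here. Striatal libraries held 17440876 to 26277553 UMIs in all barcodes.

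The members and the gene lists were chosen with earlier results of these data known. Cells took their type and library from the deposited annotation. The UMIs of each type were summed per library, so a library is the replicate. Sums were tested with edgeR 4.0.16 (R 4.3.3): filterByExpr with a minimum count of 10, TMM scaling, quasi-likelihood F-tests and Benjamini-Hochberg adjustment over all genes tested. A call between genotypes or tissues needed an FDR under 0.05 and a fold above 2, and a differing genotype effect an FDR under 0.05. DESeq2 1.42.0 was an alternative, as were other scalings, no filter, each library left out and a replicate block. The pairing comes from the study's methods, in which each biological replicate held 1 WT and 1 mutant sample. Deviations of same-numbered libraries from their genotype mean correlated at 0.20 in the striatum and 0.34 in the PFC. With 2 libraries a genotype, crossed pairs give the same values with the sign turned, so this is no test of the pairing. The scripts were tested on simulated data. Tests with 2 libraries a group rest on the spread between pools of mice, estimated in part from all genes together.

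Named genes were the 25 with the largest ratio to the next striatal type at 50 CPM or more, the 10 with the smallest p between genotypes, called genes, and list members, of which 1 gene is not reported here. Others were chosen after their values were seen: Apoe, Fth1, Ptn, Gng11, Ap2a1, Gapdh and Stmn4. Gene positions are from GENCODE release M21 on GRCm38 and promoters from RefSeq. Thinning kept 1000 UMIs per cell. Figures used matplotlib 3.10.9.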

Additional observations from a re-analysis of the deposited data

Results flagged for a closer look

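The genotype effect in newly formed oligodendrocytes differed from that in progenitors for 17 genes and from that in mature oligodendrocytes for 8 (edgeR, FDR under 0.05), and these are listed because the difference itself passed a test. Values are log2 effects in newly formed oligodendrocytes minus those in the other stage. Against progenitors they were -7.33 for Hbb-bs, -7.72 for Hba-a1, -12.35 for Hbb-bt and -5.16 for Hba-a2. Against mature oligodendrocytes they were -8.03 for Hbb-bs, -8.23 for Hba-a1, -12.54 for Hbb-bt and -6.01 for Hba-a2. Hbb-bt had 0 UMIs in both Setd1a+/- libraries of newly formed oligodendrocytes, so its value depends on the prior count and is no bound. All 86 of its UMIs in WT replicate 1 were in 1 cell, as were 716 of 720 for Hbb-bs.

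Against progenitors, the next genes were Meg3 (-2.74), Pcp4 (-1.93), Tac1 (-2.29), Arpp21 (-1.93), Snhg11 (-2.04) and Fxyd6 (-1.49). Against mature oligodendrocytes they included Meg3 (-2.86), Pcp4 (-1.78) and Ppp1r1b (-4.60). Ppp1r1b had 0 UMIs in Setd1a+/- replicate 1. Fxyd6 and Meg3 differ in their spread over cells: 7 of 78 Fxyd6 UMIs in WT replicate 1 came from the top cell, against 138 of 240 for Meg3. Without the 5 WT cells described above, Fxyd6 alone passed against progenitors and 0 genes passed against mature oligodendrocytes (edgeR, 177 at an unadjusted p under 0.05). With all cells, Fxyd6 lost its call against progenitors without WT replicate 1, WT replicate 2 or Setd1a+/- replicate 1. Groups of 2 libraries are too small for a check of single outlying libraries.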

How the results depend on the processing

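Of the alternative values, 44 stayed within the limits set for no change (a count within 1.5 times the one reported, any other value within 1 SD between replicates) and 34 moved. Genotype: 0 genes became 9 without the filter on low counts and 4 with the replicate block, and 1 to 16 with 1 library left out. The lone library is then assumed to vary like the others. Tissue: 2 became 4 with DESeq2 (Rbm3, Pfn1, Stmn4 and Trf), 68 without the filter, 58 with the replicate block, whose filter also kept 3763 instead of 3312 genes, 0 without the replicate 1 libraries of the PFC, 161 and 16 within replicate 1 and replicate 2 libraries, 1 (Meg3) in WT and 0 in Setd1a+/- libraries alone, and 0 to 43 with 1 library left out. Tissue by genotype: 0 became 1 (Meg3) with the replicate block and 0 to 1 with 1 library left out. Against progenitors, 17 became 0 with DESeq2, 11 without the filter, 11 with a replicate block within each stage, chosen after seeing the data, 1 without the 5 WT cells and 1 to 21 with 1 library left out. Against mature oligodendrocytes, 8 became 3 with the size factors of DESeq2 in edgeR (Hbb-bt, Hba-a1 and Meg3), 1 with DESeq2 (Meg3), 0 without the 5 WT cells and 3 to 9 with 1 library left out. The difference in share (Setd1a+/- minus WT) was 0.0780 percentage points of annotated cells, -0.191 to 0.347 with 1 library left out, and 3.41 of lineage cells. The difference in Setd1a was 3.34 CPM and -8.13 to 14.8 with 1 library left out, so the sign of both turned with single libraries. The cause was not tested. Leading genes: 23 of 25 were kept with each cell weighted alike and 22 of 25 after thinning. The block within each stage gave 10 genes against mature oligodendrocytes. In Setd1a+/- replicate 2, with 22 cells, 3 UMIs equal 68.8 CPM, so lower levels there rest on fewer than 3 UMIs.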
